A study of Mus musculus with 16 samples.

Results

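A set of 10 genes used to recognise macrophages of the heart, Csf1r, Adgre1, Cx3cr1, Ccr2, C1qa, Mrc1, Cd163, Lyve1, Timd4 and Folr2, were followed across all libraries of a mouse heart study. They were taken by name, and all 10 were found among the 30884 genes of the deposited table. The study asked how nicotinamide mononucleotide (NMN), a precursor of the coenzyme NAD+, bears on the heart after doxorubicin (DOX), an anthracycline chemotherapy drug with known cardiac toxicity. Male wild type C57BL/6 mice aged 8 weeks formed 4 groups of 4 hearts, 16 libraries in all, and every mouse received a pair of injections given 30 min apart. DOX_NMN mice had NMN at 500 mg/kg and then doxorubicin at 15 mg/kg, and DOX_Vehicle mice had saline and then the same doxorubicin dose. Sham_NMN mice had NMN at 500 mg/kg and then saline, and Sham_Vehicle mice had saline at both times. Hearts were taken at day 5, and total RNA of the tissue was sequenced without separating its cells. The labels only number the replicates, and p-values therefore reflect how far the libraries of a group vary, which may be technical.

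Macrophages depend on signals through the receptor that Csf1r encodes, and the heart holds them from before birth. As background, mouse hearts are described as having long-lived resident macrophages, marked by Lyve1, Folr2, Timd4 and often Cd163, and macrophages replenished from blood monocytes, marked by Ccr2. Cx3cr1 is carried by many tissue macrophages and by patrolling monocytes, and is the receptor for the chemokine Cx3cl1. In bulk tissue RNA, fewer macrophages and less of an RNA per macrophage cannot be told apart.

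The libraries held between 13.9 M and 16.4 M counts on genes. The heart label was borne out by 8 cardiomyocyte genes, whose summed level was 34600 to 52300 CPM (counts scaled to the library size) in DOX_NMN, 19700 to 28700 CPM in DOX_Vehicle, 50300 to 55600 CPM in Sham_NMN and 49600 to 58200 CPM in Sham_Vehicle. The 16 libraries fell into 2 parts by the level of Scand1, Cox11 and Mrps34: a first part of 10 libraries and a second part of 6, which held replicate 4 of DOX_NMN, replicates 3 and 4 of DOX_Vehicle, replicate 4 of Sham_NMN and replicates 3 and 4 of Sham_Vehicle. No label names this split. Blood also differed between groups: the summed level of 5 erythroid genes was 0.377 to 321 CPM in DOX_NMN, 0.378 to 2.55 CPM in DOX_Vehicle, 230 to 330 CPM in Sham_NMN and 340 to 571 CPM in Sham_Vehicle. Within DOX_NMN, replicate 3 alone reached 321 CPM, and the other 3 stayed at or under 4.65 CPM. Neutrophil genes, 10 in all, summed to 6.01 to 18.8 CPM in DOX_NMN, 40.5 to 115 CPM in DOX_Vehicle, 0.773 to 8.63 CPM in Sham_NMN and 2.09 to 6.67 CPM in Sham_Vehicle. Atrial genes, 4 in all, summed to 20.6 to 260 CPM in DOX_NMN, 9.37 to 18.3 CPM in DOX_Vehicle, 71.3 to 159 CPM in Sham_NMN and 11.7 to 219 CPM in Sham_Vehicle; in DOX_Vehicle against Sham_Vehicle 3 fell, Myl7 the most (log2 fold -6.90, edgeR adjusted p = 0.0058), and the same 3 rose in DOX_NMN against DOX_Vehicle. Of 6 fibroblast genes, Col3a1 (-3.79), Dpt (-1.82) and Col1a1 (-2.70) fell and Dcn (0.69) rose in DOX_Vehicle against Sham_Vehicle, at edgeR adjusted p between 0.00041 and 0.018, while their summed levels overlapped (694 to 1050 CPM in DOX_Vehicle and 754 to 1280 CPM in Sham_Vehicle). The part of blood, neutrophil, atrial and fibroblast RNA in the macrophage gene results was not tested.

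In DOX_Vehicle hearts 5 of the 10 macrophage genes fell and 0 rose against Sham_Vehicle hearts. The 5 were Cx3cr1, Csf1r, Mrc1, Timd4 and Ccr2 (edgeR quasi-likelihood test, Benjamini-Hochberg adjusted p under 0.05). Of all 14716 genes tested, 23.9% fell and 48.6% were called in either direction, so 5 of 10 called is near the background. Their direction was less even than that of all genes: the median log2 fold of the 10 was -0.66, against 0.01 over all genes tested. In DOX_NMN hearts Cx3cr1 and Mrc1 rose against DOX_Vehicle hearts and 0 of the 10 fell. That 2 of 10 stands beside 17.4% of all tested genes that rose and 36.1% that were called, and the median log2 fold was 0.42, against 0 over all tested genes. The DOX_Vehicle libraries enter both comparisons, so both sets of values are not independent.

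**Figure D1:**
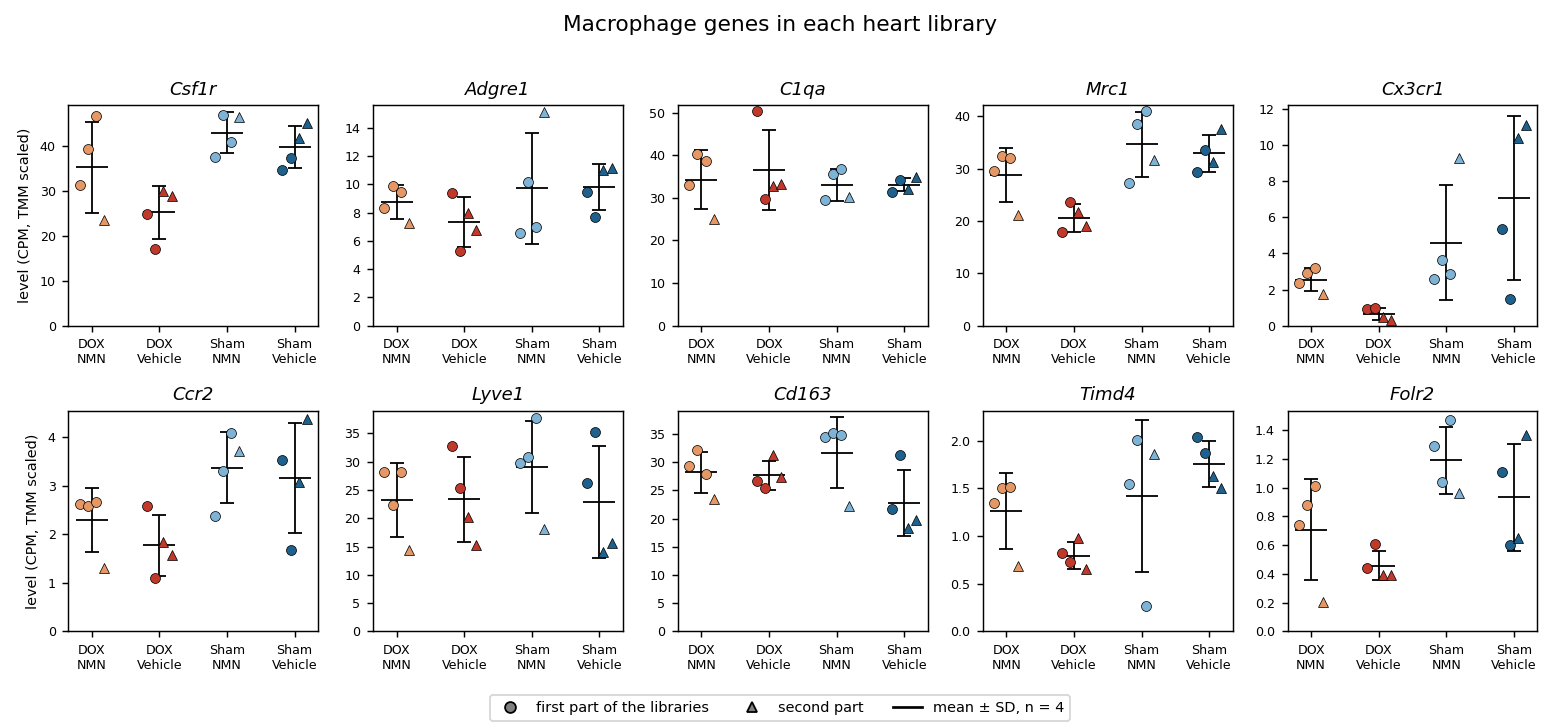
Level of each macrophage gene in every library, in CPM after scaling with edgeR's trimmed mean of M values (TMM), with the mean ± SD of each group of 4. Circles are libraries of the first part and triangles those of the second; Cx3cr1 lies lowest in DOX_Vehicle, and Lyve1 separates circles from triangles in every group.

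**Figure D2:**
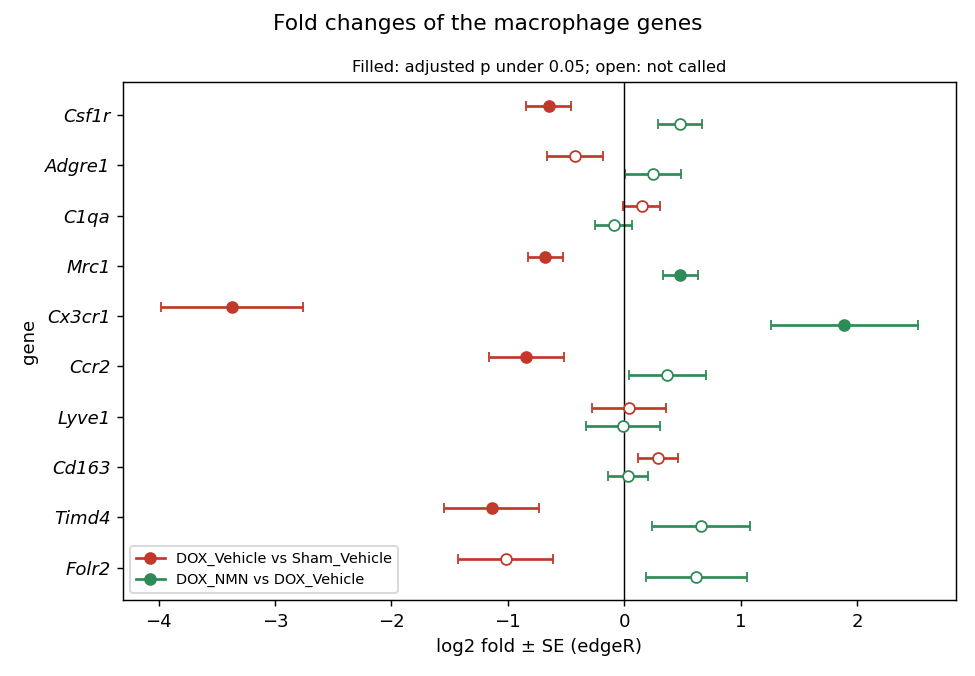
Log2 fold ± SE of the 10 genes for DOX_Vehicle against Sham_Vehicle (red) and DOX_NMN against DOX_Vehicle (green). The Cx3cr1 values, -3.37 and 1.89, lie farthest from 0. C1qa, Cd163 and Lyve1 lie within 0.29 of 0 in both comparisons and were called in neither. Adgre1 (-0.42 and 0.25) and Folr2 (-1.02 and 0.62) were also called in neither.

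The genes spanned a wide range of abundance. On the authors' FPKM scale, which divides by transcript length, C1qa was the most abundant, with a mean of 33.3 ± 7.31 FPKM in DOX_NMN, 35.2 ± 9.86 FPKM in DOX_Vehicle, 32.0 ± 3.59 FPKM in Sham_NMN and 31.6 ± 1.74 FPKM in Sham_Vehicle (SD, n = 4 each). In Sham_Vehicle hearts the order by mean FPKM then ran Lyve1 at 7.79 ± 3.47, Csf1r at 6.82 ± 0.721, Mrc1 at 5.13 ± 0.557, Cd163 at 4.14 ± 1.12 and Adgre1 at 3.01 ± 0.469. Cx3cr1 followed at 1.55 ± 0.981, Timd4 at 0.804 ± 0.122, Folr2 at 0.601 ± 0.243 and Ccr2 at 0.463 ± 0.166. C1qa lay above every other gene in each of the 4 Sham_Vehicle libraries. Of the neighbours in this order, Csf1r and Mrc1 did not overlap between libraries, while Lyve1 and Csf1r, Mrc1 and Cd163, Cd163 and Adgre1, Adgre1 and Cx3cr1, Cx3cr1 and Timd4, Timd4 and Folr2, and Folr2 and Ccr2 did. In DOX_Vehicle hearts Cx3cr1 came last, at 0.153 ± 0.0827 FPKM, below Ccr2 at 0.261 ± 0.0955 FPKM, although the libraries of that pair overlapped.

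Csf1r encodes the receptor for the macrophage growth factors Csf1 and Il34 (ENSMUSG00000024621, chromosome 18, plus strand). Its level was 25, 17, 30.1 and 28.9 CPM in DOX_Vehicle hearts, against 34.7, 37.3, 41.9 and 45.1 CPM in Sham_Vehicle hearts. Every DOX_Vehicle library lay below every Sham_Vehicle library. The log2 fold was -0.65 (SE 0.19, edgeR adjusted p = 0.0095), and the call held in every fit that left out 1 library. In DOX_NMN hearts the levels were 31.4, 39.4, 46.8 and 23.5 CPM, and replicate 4, of the second part, fell inside the DOX_Vehicle range. The log2 fold of DOX_NMN against DOX_Vehicle, 0.48 (SE 0.19), missed the threshold (edgeR adjusted p = 0.059). It passed without replicate 4 of DOX_NMN (0.64, edgeR adjusted p = 0.011) or replicate 3 of DOX_Vehicle (0.58, edgeR adjusted p = 0.046), and within the first part it was 0.90 (edgeR adjusted p = 0.0054). In the other 6 of 8 fits without 1 library it missed. Over the 8 it went down to 0.32, and the edgeR adjusted p went up to 0.21. Csf1r shares 873 of its 5774 exonic bases with Hmgxb3 on the opposite strand, and the kit named in the labels does not keep strand.

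Adgre1 encodes F4/80, the classic surface marker of mouse macrophages (ENSMUSG00000004730, GRCm38 chr17:57358691-57483527). Its level averaged 7.35 ± 1.76 CPM in DOX_Vehicle hearts and 9.83 ± 1.65 CPM in Sham_Vehicle hearts (SD, n = 4 each), with overlapping libraries. The log2 fold of -0.42 (SE 0.24) was not called (edgeR adjusted p = 0.15), and NMN with doxorubicin gave 0.25 (SE 0.24, edgeR adjusted p = 0.43). C1qa encodes a chain of complement C1q, which macrophages secrete (ENSMUSG00000036887, GRCm38 chr4:136895917-136898803). It averaged 34.3 ± 6.87 CPM in DOX_NMN, 36.6 ± 9.35 CPM in DOX_Vehicle, 33.0 ± 3.72 CPM in Sham_NMN and 33.1 ± 1.6 CPM in Sham_Vehicle. Its log2 folds were 0.15 (SE 0.16, edgeR adjusted p = 0.47) for DOX_Vehicle against Sham_Vehicle and -0.09 (SE 0.16, edgeR adjusted p = 0.67) for DOX_NMN against DOX_Vehicle. The libraries of C1qa overlapped in both comparisons.

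Mrc1 encodes the mannose receptor CD206, an endocytic receptor of tissue macrophages (ENSMUSG00000026712, GRCm38 chr2:14229392-14332057). Its level was 17.9, 23.6, 21.8 and 19.0 CPM in DOX_Vehicle hearts, against 29.4, 33.5, 31.3 and 37.6 CPM in Sham_Vehicle hearts. The groups did not overlap, and Mrc1 fell by 0.68 on the log2 scale (SE 0.15, edgeR adjusted p = 0.0015), in every fit that left out 1 library and within each part (-0.60 in the first, -0.77 in the second). In DOX_NMN hearts the levels were 29.5, 32.4, 32.0 and 21.2 CPM. Replicates 1 to 3 lay above every DOX_Vehicle library and replicate 4 did not, and the log2 fold of DOX_NMN against DOX_Vehicle was 0.48 (SE 0.15, edgeR adjusted p = 0.02). This call was lost without replicate 4 of DOX_Vehicle, replicate 2 of DOX_NMN or replicate 3 of DOX_NMN (edgeR adjusted p between 0.057 and 0.062).

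Cx3cr1, the fractalkine receptor (ENSMUSG00000052336, GRCm38 chr9:119901616-120069879), had the widest differences of the 10. Its level was 0.945, 0.967, 0.458 and 0.328 CPM in DOX_Vehicle hearts, against 5.37, 1.47, 10.4 and 11.1 CPM in Sham_Vehicle hearts. The DOX_Vehicle values rest on 5 to 16 counts a library and all lie below the lowest Sham_Vehicle library. The fitted level was 0.0967 times that of Sham_Vehicle (log2 fold -3.37, SE 0.61, edgeR adjusted p = 0.00039), and the call held without any 1 library. The log2 fold was -1.84 (edgeR adjusted p = 0.015) among libraries of the first part and -4.76 among those of the second, with 2 libraries of each of these groups in each part. The fit of the second part holds only 1 library of each NMN group, so its p is not given. In sham hearts the second part held more Cx3cr1 than the first (log2 differences 1.62 with NMN and 1.66 with vehicle), and in doxorubicin hearts less (-0.66 with NMN and -1.28 with vehicle). The differences with NMN, 1.62 and -0.66, each rest on 1 library of the second part.

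Cx3cr1 rose in DOX_NMN hearts against DOX_Vehicle hearts. The DOX_NMN hearts had 2.36, 2.89, 3.18 and 1.78 CPM, all above the 4 DOX_Vehicle hearts. The fold was 3.72 (log2 1.89, SE 0.63, edgeR adjusted p = 0.029). Replicate 3, the DOX_NMN heart with erythroid RNA at 321 CPM, had 3.18 CPM of Cx3cr1, and the other 3, at 0.377 to 4.65 CPM of erythroid RNA, had 1.78 to 2.89 CPM. The call was lost without replicate 3 or 4 of DOX_Vehicle or replicate 2 or 3 of DOX_NMN (edgeR adjusted p between 0.062 and 0.089), and the log2 fold stayed between 1.67 and 2.13. It was also lost with limma-voom (adjusted p = 0.10) and without the expression filter (edgeR adjusted p = 0.089), and held within the first part (log2 1.54, edgeR adjusted p = 0.034). Sham_NMN hearts had 2.58, 3.63, 2.87 and 9.29 CPM, within the Sham_Vehicle range. The difference between the doxorubicin effect with NMN and without it was 2.53 on the log2 scale (interaction term, SE 0.81, edgeR adjusted p = 0.042). Of all tested genes, 9.23% had a called positive interaction and 18% a called one, and Cx3cr1 was 1 of 10 macrophage genes. Of the other 9, Timd4 had the largest value (0.97, SE 0.58, edgeR adjusted p = 0.25) and Cd163 the lowest (-0.45, SE 0.24, edgeR adjusted p = 0.19). That call was lost in 10 of the 16 fits without 1 library (edgeR adjusted p between 0.051 and 0.092): without replicates 3 or 4 of DOX_Vehicle, 2 or 3 of DOX_NMN, 1, 2 or 3 of Sham_NMN, or 1, 3 or 4 of Sham_Vehicle. It was also lost with limma-voom (adjusted p = 0.11), without the expression filter (edgeR adjusted p = 0.12), with the replicate number as a block (edgeR adjusted p = 0.058) and within the first part (edgeR adjusted p = 0.10), and held with DESeq2 (adjusted p = 0.006).

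Ccr2 encodes the receptor that draws monocytes along Ccl2 and Ccl7 and marks recruited macrophages (ENSMUSG00000049103, GRCm38 chr9:124101950-124113557). Its level was 2.58, 1.09, 1.83 and 1.58 CPM in DOX_Vehicle hearts, against 3.52, 1.67, 3.07 and 4.37 CPM in Sham_Vehicle hearts. The groups overlapped, since replicate 2 of Sham_Vehicle lay below 2 DOX_Vehicle libraries. Ccr2 fell by 0.84 on the log2 scale (SE 0.32, edgeR adjusted p = 0.039). The call was lost without replicate 2, 3 or 4 of DOX_Vehicle or 1, 3 or 4 of Sham_Vehicle (edgeR adjusted p between 0.062 and 0.14), with limma-voom (adjusted p = 0.056) and within the first part (-0.51, edgeR adjusted p = 0.41). DOX_NMN hearts had 2.63, 2.58, 2.67 and 1.30 CPM, and the log2 fold against DOX_Vehicle was 0.37 (SE 0.33, edgeR adjusted p = 0.39).

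The 4 resident marker genes did not move as one. Timd4, a receptor for phosphatidylserine on dying cells (ENSMUSG00000055546, GRCm38 chr11:46810800-46844332), had 0.819, 0.726, 0.982 and 0.656 CPM in DOX_Vehicle hearts, against 2.04, 1.87, 1.63 and 1.5 CPM in Sham_Vehicle hearts. All DOX_Vehicle libraries lay lower, on 10 to 15 counts each, and Timd4 fell by 1.14 on the log2 scale (SE 0.41, edgeR adjusted p = 0.031). The call was lost without replicate 1, 2 or 4 of DOX_Vehicle or 1 or 2 of Sham_Vehicle (edgeR adjusted p between 0.05 and 0.075), with limma-voom (adjusted p = 0.059) and within each part (log2 -1.33 and -0.94). Folr2, a folate receptor of resident macrophages (ENSMUSG00000032725, GRCm38 chr7:101839988-101857194), had 0.441, 0.605, 0.393 and 0.394 CPM in DOX_Vehicle hearts, against 1.11, 0.6, 0.653 and 1.37 CPM in Sham_Vehicle hearts. These groups touched at a single pair of libraries, and the log2 fold of -1.02 (SE 0.41) missed the threshold (edgeR adjusted p = 0.051). It passed without replicate 2 of DOX_Vehicle, 2 of Sham_Vehicle or 3 of Sham_Vehicle (edgeR adjusted p between 0.035 and 0.043). In the other 5 of 8 fits without 1 library it missed. Over the 8 it ran from -1.18 to -0.77, with an edgeR adjusted p of up to 0.17. Within the first part it was -0.71 (edgeR adjusted p = 0.32). Of the 1546 exonic bases of Folr2, 975 lie opposite the exons of Gm10602. Against DOX_Vehicle, DOX_NMN gave log2 folds of 0.66 for Timd4 (SE 0.42, edgeR adjusted p = 0.23) and 0.62 for Folr2 (SE 0.43, edgeR adjusted p = 0.27).

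Upstream sequence from RefSeq (GRCm38.p6) was matched by symbol for 6 of the genes, in 220 bases that end 30 bases before the start site. It is shown for Mrc1 and Timd4, which fell in DOX_Vehicle, and for both start sites of Folr2, which lay at the threshold, since these windows were clear of annotated exons. The windows of Cx3cr1 and Ccr2, which fell too, each overlap 1 annotated exon and are not shown. Capitals mark AGGAAGT or its reverse complement, a core bound by ETS factors such as PU.1, the myeloid lineage factor.
Mrc1 chr2:14229164-14229383, + strand: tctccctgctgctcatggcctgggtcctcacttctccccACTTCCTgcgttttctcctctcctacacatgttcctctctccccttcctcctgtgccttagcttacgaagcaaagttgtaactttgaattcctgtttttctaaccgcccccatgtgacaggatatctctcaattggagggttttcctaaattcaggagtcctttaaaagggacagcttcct
Timd4 chr11:46810549-46810768, + strand: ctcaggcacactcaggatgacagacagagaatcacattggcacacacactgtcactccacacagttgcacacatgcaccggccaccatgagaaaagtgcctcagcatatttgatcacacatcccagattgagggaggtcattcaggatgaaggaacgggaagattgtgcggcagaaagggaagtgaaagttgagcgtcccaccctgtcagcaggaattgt
Folr2 chr7:101857221-101857440, - strand: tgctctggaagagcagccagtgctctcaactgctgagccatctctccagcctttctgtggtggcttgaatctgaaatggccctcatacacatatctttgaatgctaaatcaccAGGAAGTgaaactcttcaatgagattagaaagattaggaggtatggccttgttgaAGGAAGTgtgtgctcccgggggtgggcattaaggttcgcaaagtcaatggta
Folr2, other start site, chr7:101845362-101845581, - strand: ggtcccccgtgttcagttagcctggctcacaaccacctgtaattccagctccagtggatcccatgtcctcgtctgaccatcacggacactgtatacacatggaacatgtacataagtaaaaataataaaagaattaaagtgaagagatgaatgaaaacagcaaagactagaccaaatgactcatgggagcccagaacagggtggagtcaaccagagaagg
Searched on both strands, AGGAAGT matched 1 time in Mrc1, 2 times in the first Folr2 window shown, 0 times in the other and 0 times in Timd4, and 0 times in the windows of Cx3cr1 and Ccr2. The longer GAGGAAGT, which holds it, matched in none of these windows. Over 32851 RefSeq promoters the same 220 bases held AGGAAGT in 6.5% and GAGGAAGT in 2.04%. A match is a description of these letters.

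Cd163, the scavenger receptor for haemoglobin bound to haptoglobin (ENSMUSG00000008845, GRCm38 chr6:124304656-124330527), had 26.7, 25.4, 31.3 and 27.4 CPM in DOX_Vehicle hearts, against 21.7, 31.3, 18.3 and 19.7 CPM in Sham_Vehicle hearts. Sham_Vehicle replicate 2 lay level with the highest DOX_Vehicle library, and the other 3 lay below all of them. The log2 fold of 0.29 (SE 0.17) was not called (edgeR adjusted p = 0.17). Without replicate 2 of Sham_Vehicle it was 0.48 (edgeR adjusted p = 0.019), within the second part 0.62, and within the first part -0.02. The other 7 of 8 fits without 1 library did not call it, at values down to 0.19. Sham_NMN hearts had 34.5, 35.2, 34.9 and 22.3 CPM. The log2 fold of Sham_NMN against Sham_Vehicle, 0.48 (SE 0.17), had an unadjusted edgeR p of 0.011 and an adjusted p of 1.

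Lyve1, a hyaluronan receptor of resident macrophages and also of lymphatic endothelium (ENSMUSG00000030787, GRCm38 chr7:110850607-110863239), followed the split of the libraries. Its level was 28.1, 22.3, 28.1 and 14.3 CPM in DOX_NMN, 32.8, 25.3, 20.2 and 15.2 CPM in DOX_Vehicle, 29.7, 30.9, 37.7 and 18.1 CPM in Sham_NMN, and 26.3, 35.2, 14.0 and 15.7 CPM in Sham_Vehicle. The lowest value of the first part, 22.3 CPM, was above the highest of the second, 20.2 CPM. Among all tested genes, 0.591% had every first-part library above every second-part library. The log2 folds were 0.04 (SE 0.32, edgeR adjusted p = 0.93) for DOX_Vehicle against Sham_Vehicle and -0.01 (SE 0.32, edgeR adjusted p = 0.98) for DOX_NMN against DOX_Vehicle. The lymphatic genes were counted beside it: of 6, Ccl21a, a chemokine (log2 fold -2.08, edgeR adjusted p = 0.00047), and Prox1, the lymphatic identity factor (-0.80, edgeR adjusted p = 0.0047), fell in DOX_Vehicle and 4 were not called. Their summed level was 122 to 150 CPM in DOX_NMN, 77.9 to 114 CPM in DOX_Vehicle, 117 to 160 CPM in Sham_NMN and 132 to 162 CPM in Sham_Vehicle. The part of lymphatic RNA in the Lyve1 level was not tested.

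Resident and recruited markers were set against each other in each library, as the mean log2(CPM + 0.5) of Lyve1, Folr2, Timd4 and Cd163 minus that of Ccr2. The value was 1.14 ± 0.05 in DOX_NMN, 1.27 ± 0.37 in DOX_Vehicle, 0.91 ± 0.44 in Sham_NMN and 0.84 ± 0.65 in Sham_Vehicle (SD, n = 4 each). Single libraries ran from 0.91 to 1.79 in DOX_Vehicle and from 0.28 to 1.77 in Sham_Vehicle, and the overlap rested on replicate 2 of Sham_Vehicle, since the other 3 (0.28 to 0.80) lay below every DOX_Vehicle library. DOX_Vehicle minus Sham_Vehicle came to 0.43, and it was 0.73 without replicate 2 of Sham_Vehicle, 0.25 without replicate 2 of DOX_Vehicle and 0.24 without replicate 4 of Sham_Vehicle. Taken as log2 of the summed FPKM of the 4 resident genes over that of Ccr2, it was 0.90. The first part alone gave 0.06 and the second alone 0.79. DOX_NMN minus DOX_Vehicle was -0.12, -0.35 by summed FPKM, and 0.05 without replicate 2 of DOX_Vehicle, so its sign rested on that library. Of the single markers, Timd4 alone had a lower mean over Ccr2 in DOX_Vehicle: the mean log2 level over Ccr2 in DOX_Vehicle against Sham_Vehicle was 3.38 against 2.63 for Lyve1 and 3.67 against 2.70 for Cd163, -1.21 against -1.33 for Folr2, but -0.77 against -0.64 for Timd4.

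**Figure D3:**
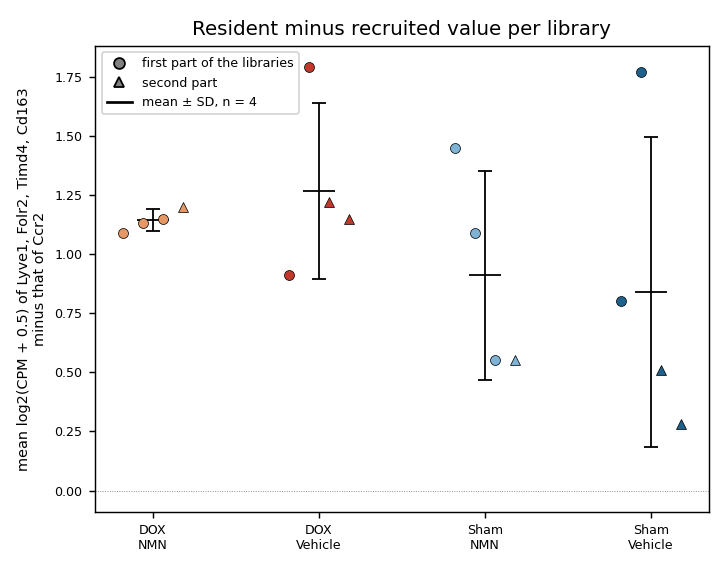
The resident minus recruited value, in log2 units, of each library, with the mean ± SD of each group of 4; circles are libraries of the first part and triangles those of the second. The 4 DOX_NMN libraries sit between 1.09 and 1.20, and the Sham_Vehicle libraries spread from 0.28 to 1.77.

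Without doxorubicin, edgeR called 0 of 10 in Sham_NMN against Sham_Vehicle, with 1, Cd163, at an unadjusted p under 0.05, and DESeq2 and limma-voom called 0 as well. Of all 14716 tested genes 0% were called, and 2.26% had an unadjusted p under 0.05. With NMN in both groups, DOX_NMN against Sham_NMN likewise gave 0 of 10 called by edgeR, DESeq2 and limma-voom, with 0 at an unadjusted p under 0.05, beside 0% called by edgeR and limma-voom, 0.146% called by DESeq2 and 8.19% at an unadjusted edgeR p under 0.05 over all tested genes. Here 9 of the 10 log2 folds were negative, with a median of -0.28, against 0 over all tested genes. The lowest were Cx3cr1 at -0.84 (SE 0.53) and Folr2 at -0.74 (SE 0.39). A p that misses the threshold does not show that the groups were alike.

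Other macrophage genes were counted next. Of 20 genes of a resident macrophage list 15 were tested, and in DOX_Vehicle against Sham_Vehicle 7 fell and 3 rose, with a median log2 fold of -0.36, beside 23.9% of all tested genes that fell and 24.7% that rose. The summed level of the 20 genes overlapped between groups, at 518 to 595 CPM in DOX_Vehicle and 509 to 594 CPM in Sham_Vehicle. Gpr34, a lysophospholipid receptor, had 0.252, 0.302, 0 and 0 CPM in DOX_Vehicle hearts, against 2.04, 1.13, 2.22 and 3.06 CPM in Sham_Vehicle hearts (log2 fold -3.82, SE 0.57, edgeR adjusted p = 6e-05). Mgl2, a C-type lectin (-2.90, SE 0.47, edgeR adjusted p = 0.00018), Stab1, a scavenger receptor also found on endothelium (-1.01, SE 0.16, edgeR adjusted p = 0.00012), and Igf1, a growth factor (-2.01, SE 0.36, edgeR adjusted p = 0.00034), fell too. The DOX_Vehicle and Sham_Vehicle libraries of Gpr34, Mgl2, Stab1 and Igf1 did not overlap. These genes were picked by the smallest p of the list in this comparison, which makes that likely, and the share over all tested genes was not counted. Ednrb, the endothelin receptor B (1.06, SE 0.32, edgeR adjusted p = 0.012), Gas6, a ligand of Axl and Mertk (0.55, SE 0.13, edgeR adjusted p = 0.0019), and Siglec1, a sialic acid receptor (0.69, SE 0.23, edgeR adjusted p = 0.019), were the 3 that rose, the last pair named after their values were seen. Ednrb in DOX_Vehicle was 17.8 and 26.8 CPM in the first part, against 17.2 to 25.5 CPM in Sham_Vehicle, and 60.6 and 65.4 CPM in the second. The part of other heart cells in the resident list was not tested. In DOX_NMN against DOX_Vehicle 6 rose and 1 fell, with a median of 0.36, beside 17.4% of all tested genes that rose. Gpr34 (3.16, SE 0.59, edgeR adjusted p = 0.00077), Mgl2 (2.42, SE 0.47, edgeR adjusted p = 0.0014) and Stab1 (0.75, SE 0.16, edgeR adjusted p = 0.002) rose, and Ednrb fell (-1.39, SE 0.32, edgeR adjusted p = 0.0042). Within the first part 5 of 16 tested fell and 0 rose in DOX_Vehicle against Sham_Vehicle. That is near the 27.6% of all tested genes called there in either direction.

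A monocyte and recruited macrophage list went the other way. Of 20 genes 15 were tested, and in DOX_Vehicle 9 rose and 2 fell, with a median log2 fold of 1.26, beside 24.7% of all tested genes that rose. Chil3, a chitinase-like protein of monocytes and neutrophils, had 15.8, 6.11, 10.7 and 11.2 CPM in DOX_Vehicle hearts, against 0.247, 1, 0.0653 and 0.25 CPM in Sham_Vehicle hearts (log2 fold 4.8, SE 0.79, edgeR adjusted p = 0.00021). Gpnmb, a glycoprotein of lipid-laden macrophages (2.93, SE 0.42, edgeR adjusted p = 5e-05), Lgals3, galectin 3 (1.77, SE 0.26, edgeR adjusted p = 5.1e-05), and Ifitm6 (3.26, SE 0.55, edgeR adjusted p = 0.00018) rose too. The genes that fell were Vcan (-1.28, edgeR adjusted p = 0.0053) and Fn1 (-1.11, edgeR adjusted p = 0.003), both matrix proteins that fibroblasts also make. In DOX_NMN against DOX_Vehicle 7 fell and 1 rose, with a median of -1.24, beside 18.7% of all tested genes that fell. Ifitm6 (-4.10, SE 0.61, edgeR adjusted p = 0.00014), Thbs1, thrombospondin 1 (-2.56, SE 0.37, edgeR adjusted p = 0.00019), and Chil3 (-4.51, SE 0.77, edgeR adjusted p = 0.00061) fell, and Fn1 rose (0.88, edgeR adjusted p = 0.018). Ly6c2, the usual marker of classical monocytes, was among the 5 genes under the expression filter. Within the first part 6 of 15 rose and 0 fell in DOX_Vehicle against Sham_Vehicle, beside 27.6% of all tested genes called there in either direction. All 8 neutrophil genes tested rose in DOX_Vehicle, among them S100a8 (5.05, SE 0.75, edgeR adjusted p = 9.4e-05), beside 24.7% of all tested genes. In DOX_NMN against DOX_Vehicle 7 of the 8 fell, beside 18.7% of all tested genes. Some listed genes would not have passed the expression filter without DOX_Vehicle. Il1r2, a neutrophil gene, had 0.786 to 3.41 CPM there and at most 0.601 CPM elsewhere. The neutrophil genes Cxcr2 and Mmp8 had 1.77 to 3.34 CPM and 3.27 to 13.2 CPM there. They had 1.21 and 1.48 CPM in replicate 1 of DOX_NMN and at most 0.546 and 0.333 CPM in any other library. Ifitm6 had 1.75 to 5.42 CPM there and at most 0.667 CPM elsewhere. For such genes the filter itself favours a rise in DOX_Vehicle and a fall in DOX_NMN, so these counts are not free of it. The part of neutrophil RNA, and of RNA from other heart cells, in the monocyte list was not tested.

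**Figure D4:**
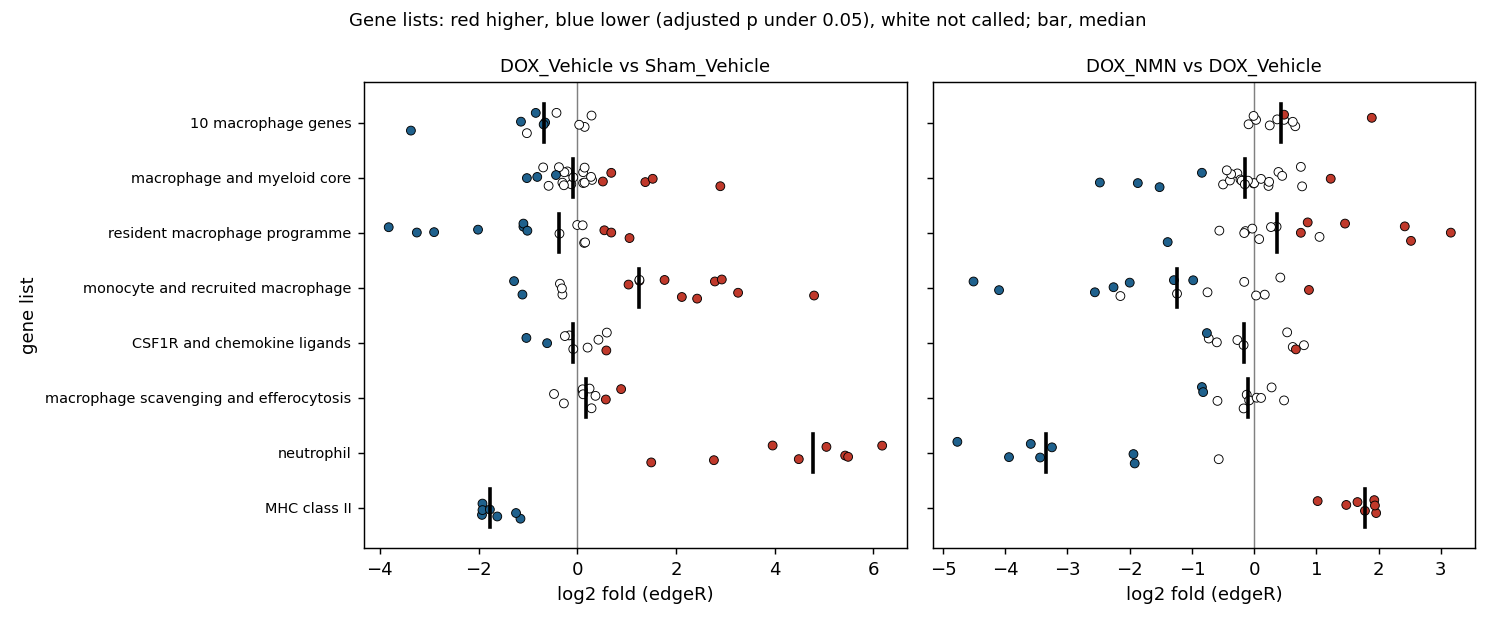
Log2 fold of each tested gene of the macrophage set and of 7 gene lists in DOX_Vehicle against Sham_Vehicle (left) and DOX_NMN against DOX_Vehicle (right); points are genes, red where higher and blue where lower at adjusted p under 0.05, and bars are medians. The resident and monocyte lists have medians of opposite sign in each panel, -0.36 and 1.26 on the left, 0.36 and -1.24 on the right. Ccr2, the recruited marker, is in the macrophage set and lies at -0.84 on the left.

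Of 23 macrophage and myeloid core genes, all tested, 5 rose and 3 fell in DOX_Vehicle against Sham_Vehicle, with a median log2 fold of -0.08. These 8 of 23 are a smaller share than the 48.6% called among all tested genes. Csf2rb, a shared subunit of cytokine receptors (2.90, SE 0.45, edgeR adjusted p = 1e-04), Itgam, the integrin CD11b (1.38, SE 0.31, edgeR adjusted p = 0.0015), Cd14, a lipopolysaccharide co-receptor (1.53, SE 0.45, edgeR adjusted p = 0.012), and Fcer1g, an adaptor of Fc receptors (0.69, SE 0.23, edgeR adjusted p = 0.018), rose, and neutrophils carry them as well. The fifth that rose was Mertk (0.52), and Fcgr1 (-0.81), Maf (-1.02) and Axl (-0.43) fell, named here to complete the count after their values were seen. Cd14 in DOX_Vehicle was 6.11 and 6.47 CPM in the first part, within the 4.2 to 8.5 CPM of Sham_Vehicle, and 28.6 and 29.5 CPM in the second. Without replicate 4 of DOX_Vehicle 4 rose and 0 fell, without replicate 2 of Sham_Vehicle 5 rose and 0 fell, and without replicate 4 of Sham_Vehicle 4 rose and 1 fell. In these fits 40.7%, 45.5% and 42.7% of all tested genes were called. Over the other alternatives 4 to 11 of the 23 were called, with fewer than 8 when only the groups compared were fitted and within the first part. In DOX_NMN against DOX_Vehicle 4 of the 23 fell, Csf2rb, Itgam, Cd14 and Fcer1g, and 1, Maf, rose (1.23, edgeR adjusted p = 0.017), with a median of -0.15. The summed level of these genes was 317 to 454 CPM in DOX_NMN, 381 to 465 CPM in DOX_Vehicle, 404 to 471 CPM in Sham_NMN and 425 to 468 CPM in Sham_Vehicle.

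Of 12 ligand genes 9 were tested, and in DOX_Vehicle against Sham_Vehicle Csf1 and Cxcl12 fell and Ccl9 rose, again a smaller share than that of all tested genes. Csf1, the main ligand of the Csf1r receptor, had 41.6, 43.6, 12.9 and 14.1 CPM in DOX_Vehicle hearts, against 54.2, 44.6, 62.3 and 68.2 CPM in Sham_Vehicle hearts. All DOX_Vehicle libraries were lower, the pair of the second part most so, and the log2 fold was -1.03 (SE 0.34, edgeR adjusted p = 0.02). Without replicate 4 of DOX_Vehicle, and within the first part, 1 of the 9 genes was called, and it rose. Of all tested genes 40.7% and 27.6% were called in those fits. In DOX_NMN Csf1 had 55.4, 54.2, 51.2 and 35.4 CPM, with a log2 fold against DOX_Vehicle of 0.80 (SE 0.33, edgeR adjusted p = 0.074). Cxcl12 rose in DOX_NMN against DOX_Vehicle (0.67, edgeR adjusted p = 0.024) and Ccl9 fell (-0.76, edgeR adjusted p = 0.0045), and 1 of the 9 was called without replicate 3 or 4 of DOX_Vehicle or replicate 2 or 3 of DOX_NMN. Those fits called 25.2% to 26.9% of all tested genes. Il34, the other ligand of Csf1r, had log2 folds of -0.16 (edgeR adjusted p = 0.66) in DOX_Vehicle against Sham_Vehicle and 0.53 (edgeR adjusted p = 0.13) in DOX_NMN against DOX_Vehicle. Cx3cl1, the ligand of Cx3cr1, averaged 8.24 ± 0.299 CPM in DOX_Vehicle and 7.14 ± 1.84 CPM in Sham_Vehicle (SD, n = 4 each; log2 fold 0.21, SE 0.16, edgeR adjusted p = 0.29). The Ccr2 ligands Ccl2 (-0.08, edgeR adjusted p = 0.91), Ccl7 (0.43, edgeR adjusted p = 0.57) and Ccl12 (-0.25, edgeR adjusted p = 0.75) were not called either, at mean levels of 1.77 CPM or less in every group.

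Of 10 tested scavenging and efferocytosis genes, Cd36, a fatty acid transporter also high in cardiomyocytes and endothelium (0.89, SE 0.16, edgeR adjusted p = 0.00031), and Msr1, a scavenger receptor (0.58, SE 0.23, edgeR adjusted p = 0.041), rose in DOX_Vehicle against Sham_Vehicle. Both fell in DOX_NMN against DOX_Vehicle (-0.84 and -0.82), and in both comparisons 2 of 10 is below the share called among all tested genes. Without replicate 4 of DOX_Vehicle, or without any 1 replicate of Sham_Vehicle, 1 of the 10 genes was called, and it rose. Those fits called 40.7% to 45.5% of all tested genes. The antigen presentation genes moved together: all 7 MHC class II genes fell in DOX_Vehicle, with a median log2 fold of -1.77, beside 23.9% of all tested genes. All 7 rose in DOX_NMN against DOX_Vehicle, with a median of 1.78, beside 17.4% of all tested genes. The DOX_Vehicle libraries enter both counts, which are not independent. Cd74, the invariant chain, had 37.2, 69.3, 75.0 and 34.6 CPM in DOX_NMN hearts, 9.39, 9.13, 22.3 and 22.1 CPM in DOX_Vehicle hearts and 63.8, 47.6, 55.6 and 47.4 CPM in Sham_Vehicle hearts. These genes are shared by macrophages, dendritic cells and B cells, and Ighm, a B cell gene, fell as well (-3.46, SE 0.38, edgeR adjusted p = 4.7e-06); the part of each cell type was not tested.

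Across the 16 libraries, the tested genes most alike to Csf1r by Pearson's r of log2 CPM were Rps6kl1 (0.953), Usp12 (0.921) and Top2a (0.912). Those most alike to Ccr2 were Gm49123 (0.892), Rhbdf1 (0.883) and Cyth4 (0.867). Those most alike to Lyve1 were Bcl9l (0.947), Cox5a (0.917) and Mrps34 (0.908), the last of which was used to define the split. These are the highest of 14715 values each, and the points share the groups, the library split and their sequencing depth. Among the 10 genes, after each group's mean was taken off, r was highest for Cd163 and Lyve1 (0.70) and lowest for Cx3cr1 and Cd163 (-0.77). Adgre1 went with Cx3cr1 (0.66) and Ccr2 (0.65), and r was 0 for Lyve1 with Timd4. These are descriptions over 16 libraries, and the split runs within the groups.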

How the data were processed

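Counts per gene and FPKM values (fragments per kilobase, scaled to the library size) were deposited by the authors for 16 mouse heart libraries. Per the submitters' processing notes, HISAT2 2.1.0, HTSeq 0.6.0 and GRCm38 were used, in roles the sources used here do not give. The deposited counts are not normalized, and the FPKM values equal count over library total and gene length within a relative spread of 1.4e-13. Per the labels' protocols the library kit was NEBNext Ultra, which does not keep strand, so reads of genes overlapping on opposite strands cannot be told apart.

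Counts were fitted across all 4 groups with edgeR 4.0.16 in R 4.3.3 (filterByExpr, TMM scaling, robust quasi-likelihood test), with Benjamini-Hochberg adjustment over 14716 genes, 0.05 as the threshold and SE taken as the log2 fold over the root of F. All 10 members passed the filter. The robust option was chosen to match an earlier treatment of these data, after fits with and without it had been seen; without it Folr2 in DOX_Vehicle against Sham_Vehicle has an adjusted p of 0.049 instead of 0.051. CPM values are scaled by TMM. FPKM served for levels between genes. Replicate libraries differed beyond counting noise in every pair (lowest chi-square per gene 3.88, where counting noise alone gives about 1). The fit recovered known changes in counts simulated with the same spread for every gene and no library split, so that check does not cover the split or genes of wider spread. DESeq2 1.42.0, limma 3.58.1 with voom, other scalings and filters, the replicate number as a block, the library split, and leaving out each library were tried as alternatives. The split was drawn at the widest gap in the mean log2 level of Scand1, Cox11 and Mrps34, genes picked from earlier results of these data.

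The members and gene lists were chosen with earlier results of these data known. Named in the text are all 10 members, from each list up to 4 genes with the smallest p in DOX_Vehicle against Sham_Vehicle and, for the first 5 lists, in DOX_NMN against DOX_Vehicle, Csf1, Il34, Cx3cl1, Ccl2, Ccl7 and Ccl12 whatever their values, and the 3 genes most correlated with each of Csf1r, Ccr2 and Lyve1; further genes, chosen after their values were seen, complete small counts. Counts and intervals cover these libraries only; precision at low counts is limited, as for Folr2 with 3 to 22 counts a library.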

Additional observations from a re-analysis of the deposited data

Results flagged for a closer look

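Single libraries stood far from the other 3 of their group in 3 cases, by Dixon's test for a group of 4 (the widest gap over the range, which passes its critical value by chance in about 1 of 20 groups; 44 groups were looked at). Cx3cr1 in Sham_NMN replicate 4 was 9.29 CPM, against 2.58 to 3.63 CPM in the others. Cd163 in the same library was 22.3 CPM, against 34.5 to 35.2 CPM. Ccr2 in DOX_NMN replicate 4 was 1.3 CPM, against 2.58 to 2.67 CPM. Both libraries are the only ones of their groups in the second part of the split.

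The doxorubicin effect on Cx3cr1 differed between mice with NMN and mice without it, by 2.53 on the log2 scale (edgeR interaction term, adjusted p = 0.042). The call was lost in 10 of 16 fits that left out 1 library.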

How the results depend on the processing

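Members called in DOX_Vehicle against Sham_Vehicle, 5 as reported, came to 3 at adjusted p under 0.01, 3 with limma-voom and 3 within the first part (an alternative added after the data were seen), each time Csf1r, Cx3cr1 and Mrc1. Of all tested genes 34.3%, 48.7% and 27.6% were called in the same order. Leaving out 1 library gave 3 to 6, with 3 without replicate 4 of DOX_Vehicle or replicate 1 of Sham_Vehicle. In that pair of fits 40.7% and 43.9% of all tested genes were called. In DOX_NMN against DOX_Vehicle, 2 as reported, 0 were called at adjusted p under 0.01, 1 without the expression filter and 1 with limma-voom, both times Mrc1. Of all tested genes 20.4%, 14.9% and 35.8% were called in the same order. There, leaving out 1 library gave 0 to 3, with 0 without replicate 4 of DOX_Vehicle or replicate 2 or 3 of DOX_NMN. Without these libraries 25.2%, 26.9% and 26.2% of all tested genes were called. For the interaction, 1 as reported, 0 were called at adjusted p under 0.01, without the filter, with limma-voom, with the replicate block and within the first part. Of all tested genes 5.78%, 6.48%, 17.4%, 17.6% and 9.23% were called in the same order. Fits without 1 library gave 0 to 2, the 2 without replicate 2 of Sham_Vehicle, beside 16.7% of all tested genes. The comparisons of Sham_NMN with Sham_Vehicle and of DOX_NMN with Sham_NMN gave 0 under every alternative run, leaving out 1 library included, beside at most 0.146% of all tested genes. The resident minus recruited difference, leaving out 1 library, ran from 0.24 to 0.73 for DOX_Vehicle minus Sham_Vehicle, -0.24 to 0.05 for DOX_NMN minus DOX_Vehicle, -0.11 to 0.38 for Sham_NMN minus Sham_Vehicle and 0.11 to 0.41 for DOX_NMN minus Sham_NMN. By summed FPKM the 4 were 0.90, -0.35, 0.24 and 0.31 in the same order. The cause of these changes was not tested, apart from the smaller sets of libraries. Of 1030 fold changes of members under alternatives, 975 kept their side of the threshold, 40 lost the call and 15 gained one. The 975 are mostly values of genes not called to begin with, so they do not measure how stable the calls are. They include 190 values each of Sham_NMN against Sham_Vehicle and DOX_NMN against Sham_NMN, which had no call to lose. The 40 losses fell on the 5, 2 and 1 calls reported. They were 17 in DOX_Vehicle against Sham_Vehicle, 9 in DOX_NMN against DOX_Vehicle and 14 in the interaction. No called value turned sign, and 38 values that were never called did.

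Correlations of same-numbered libraries ran from -0.12 to 0.4, 5 of 24 pairs exceeded 0.1 and 5 of 16 libraries correlated best with their own number. The number partly followed the library split: replicate 4 of every group lay in the second part, and replicates 1 and 2 of every group in the first. With the replicate block, members called were 5 in DOX_Vehicle against Sham_Vehicle, 2 in DOX_NMN against DOX_Vehicle and 0 in the interaction. Of all tested genes 48.7%, 35.9% and 17.6% were called in the same order. Upper-quartile scaling moved the median of all genes by at most 0.08. An exact permutation test planned for members under the filter was not needed. Libraries of 13.9 M to 16.4 M counts put Folr2, Timd4 and Cx3cr1 at 3 to 178 counts a library; how far depth or the spread between replicates limits their calls was not tested.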

Other observations

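Among dendritic cell genes, 5 of 10 were tested, and in DOX_Vehicle against Sham_Vehicle Clec9a rose (log2 fold 0.87, SE 0.18, edgeR adjusted p = 0.00071) and Zbtb46, also an endothelial gene, fell (-0.57, SE 0.19, edgeR adjusted p = 0.019). Their summed level was 26.7 to 40.3 CPM in DOX_Vehicle and 30.1 to 37.2 CPM in Sham_Vehicle, and the groups overlapped. The 6 B cell genes summed to 5.46 to 7.54 CPM in DOX_NMN, 0.819 to 1.9 CPM in DOX_Vehicle, 3.48 to 9.7 CPM in Sham_NMN and 8.52 to 11.7 CPM in Sham_Vehicle. The 4 groups of T and NK cell genes overlapped, with summed levels between 0.838 and 4.8 CPM.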
